A study of Mus musculus with 13 samples.

Results

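The primordial germ cell and pluripotency genes were followed in female germ cells of the fetal ovary at E17.5. They are the 10 genes *Pou5f1*, *Nanog*, *Sox2*, *Dppa3*, *Prdm1*, *Prdm14*, *Tfap2c*, *Utf1*, *Dnd1* and *Nanos3*, chosen by name out of the 55335 genes of the count table and matched by gene identifier to GENCODE M21. *Dppa3* was counted in all 13 libraries, at 302 to 2532 reads. *Prdm1* was counted in 11 libraries at no more than 58 reads, and 5 genes (*Nanos3*, *Pou5f1*, *Prdm14*, *Nanog* and *Tfap2c*) in 3 to 5 libraries each. *Sox2*, *Utf1* and *Dnd1* had 0 reads in every library. For *Sox2* this 0 gives no level, as the gene lies wholly inside another gene.

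Primordial germ cells are the founders of oocytes and sperm. They are set aside from the early embryo under the transcription factors PRDM1, PRDM14 and TFAP2C, take up the pluripotency factors POU5F1 (OCT4), NANOG and SOX2 again, and reach the gonad under the protection of the RNA-binding proteins NANOS3 and DND1. In the ovary they then enter meiosis, lose the pluripotency factors and turn on oocyte genes. DPPA3 (STELLA, PGC7), a protein that protects methylated DNA in the zygote, is a known product of both primordial germ cells and growing oocytes.

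The germ cells were sorted by FACS for a *Pou5f1*-GFP transgene (*Tg(Pou5f1-EGFP)2Mnn*, an *Oct4* promoter construct without the proximal enhancer), which all 13 embryos carried, and each 3' Tag-Seq library was made from the ovary pair of 1 female embryo. WT (n = 3) and KO embryos (n = 3) came from *Nr3c1* KO/+ parents, and KO embryos were homozygous for a null allele of the glucocorticoid receptor gene *Nr3c1* made by deletion of exon 3 with a β-actin Cre. Floxed controls (flox, n = 3) and conditional knockouts (cKO, n = 4) came from a cross in which all embryos carried 2 floxed *Nr3c1* alleles (*Nr3c1tm1.1Jda*) and all dams were given 125 μg / g tamoxifen at E10.5, and only cKO embryos carried the tamoxifen-activated Cre. That Cre is inserted at *Pou5f1* itself (*Pou5f1tm1.1(cre/Esr1*)Yseg*), so 1 of the 10 genes has a targeted allele in the cKO group. Alleles and tamoxifen differ together between the constitutive cross (WT and KO, 6 libraries) and the conditional cross (flox and cKO, 7 libraries) and cannot be told apart. The replicates are labelled as biological, from separate embryos.

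The libraries held 2048706 to 3674989 reads on genes, so that 1 read corresponded to 0.272 to 0.486 CPM (counts scaled to the library's size and TMM factor). A count of 0 allowed up to 3 reads, or 0.816 to 1.46 CPM in a single library, and these limits cover counting error only. The libraries carried the markers of fetal oocytes, with 11 of 14 such genes at 3 or more reads in every library and a summed level of 11978 to 18365 CPM, led by the meiotic genes *Sycp1* and *Smc1b* and the germ cell gene *Dazl*. The summed level of 16 genes of ovarian somatic cells was 108 to 429 CPM, of which *Col1a1*, *Nr2f2* and *Pecam1* were highest. Of 10 blood and immune genes, led by *Hbb-bs*, *Hba-a1* and *Hbb-bt*, the summed level was 0 to 386 CPM in 12 libraries and 1323 CPM in flox replicate 1, which stood apart, and *Alas2*, an erythroid gene, had 0 reads in all. *Nr3c1* was counted at 54 to 167 reads in KO and 61 to 216 in WT, and at 82 to 211 in cKO and 105 to 215 in flox, and reads counted per gene do not show whether exon 3 is present. In bulk samples, fewer cells that express a gene and less RNA per cell cannot be told apart.

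POU5F1 and SOX2 bind DNA side by side, POU5F1 at an octamer-like motif and SOX2 at a short motif beside it, and *Nanog* is a textbook target of the pair. The 250 bases before a transcript start are given by RefSeq (GRCm38.p6) for 6 of the 10 genes. They were searched on both strands for the letters ATGCAAA, the core of the octamer (TTTGCAT on the other strand), and ACAATG, a SOX motif (CATTGT on the other strand). Of 32536 distinct windows of this length in the whole table, 4.15% held the first motif, 3408 windows held the second and 0.649% held both. *Nanog* (chr6:122707239-122707488, plus strand) held both, 75 and 67 bases before the start, with 1 base between them. The same letters lay 151 and 143 bases before a second, downstream start of *Nanog*. *Sox2* (chr3:34649745-34649994, plus strand) held the first, 99 bases before its start. These windows are shown, 5′ to 3′ with the matches in capitals, because they belong to the pluripotency factors themselves. *Nanog* had 0 to 19 reads per library. *Sox2* had 0, which gives no level, as the gene lies wholly inside another gene.
Nanog: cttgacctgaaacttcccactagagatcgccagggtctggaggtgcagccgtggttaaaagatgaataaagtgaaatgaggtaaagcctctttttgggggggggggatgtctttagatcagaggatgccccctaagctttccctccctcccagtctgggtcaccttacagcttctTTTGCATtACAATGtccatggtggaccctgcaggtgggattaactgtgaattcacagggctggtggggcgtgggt
Sox2: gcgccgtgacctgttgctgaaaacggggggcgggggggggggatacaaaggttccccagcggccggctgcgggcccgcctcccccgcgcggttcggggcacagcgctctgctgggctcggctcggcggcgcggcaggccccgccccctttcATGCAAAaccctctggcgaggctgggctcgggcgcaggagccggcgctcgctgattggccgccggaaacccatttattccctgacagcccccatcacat
The letters ACAATG were also found 123 bases before the start of *Nanos3* and 158 bases before a second, downstream start of *Pou5f1*. Neither set of letters was found in the windows of *Utf1*, *Prdm1* or the upstream start of *Pou5f1*. The windows of *Prdm1* and *Nanos3* lie inside the gene intervals given below, not before their 5′ ends. A match is a description of the letters and no measurement of binding.

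The 10 genes lie on 9 chromosomes of mm10. *Dppa3* (ENSMUSG00000046323.8, chromosome 6, 122626410 to 122630272, plus strand) and *Nanog* (ENSMUSG00000012396.12, chromosome 6, 122707489 to 122714633, plus strand) are neighbours 77216 bp apart. *Pou5f1* (ENSMUSG00000024406.16) lies on chromosome 17 from 35506018 to 35510772, *Sox2* (ENSMUSG00000074637.7) on chromosome 3 from 34650405 to 34652461, *Utf1* (ENSMUSG00000047751.9) on chromosome 7 from 139943789 to 139945112 and *Tfap2c* (ENSMUSG00000028640.11) on chromosome 2 from 172549593 to 172558622, all on the plus strand. *Prdm1* (ENSMUSG00000038151.13) lies on chromosome 10 from 44437177 to 44528501, *Prdm14* (ENSMUSG00000042414.7) on chromosome 1 from 13113457 to 13127163, *Dnd1* (ENSMUSG00000044595.10) on chromosome 18 from 36763671 to 36766214 and *Nanos3* (ENSMUSG00000056155.6) on chromosome 8 from 84173731 to 84185217, all on the minus strand.

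*Dppa3* gave 96.2% of the 13899 reads counted on the 10 genes. It was the only gene of the 10 with at least 3 reads in every library, a level that 33.4% of the 21398 protein-coding genes reached. Its mean over the 13 libraries was 405 ± 201 CPM (SD). Per length this was 455 CPM per kb of exon, rank 55 of the 21398 protein-coding genes, beside 1.33 CPM per kb for *Prdm1* and 4.11 CPM per kb for *Nanos3*, the next of the 10 on either scale. Reads of this protocol start near the 3′ end of a transcript, so that a value per length gives short genes a high value. Reads inside introns may also be counted, while the division is by exon length.

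**Figure D1:**
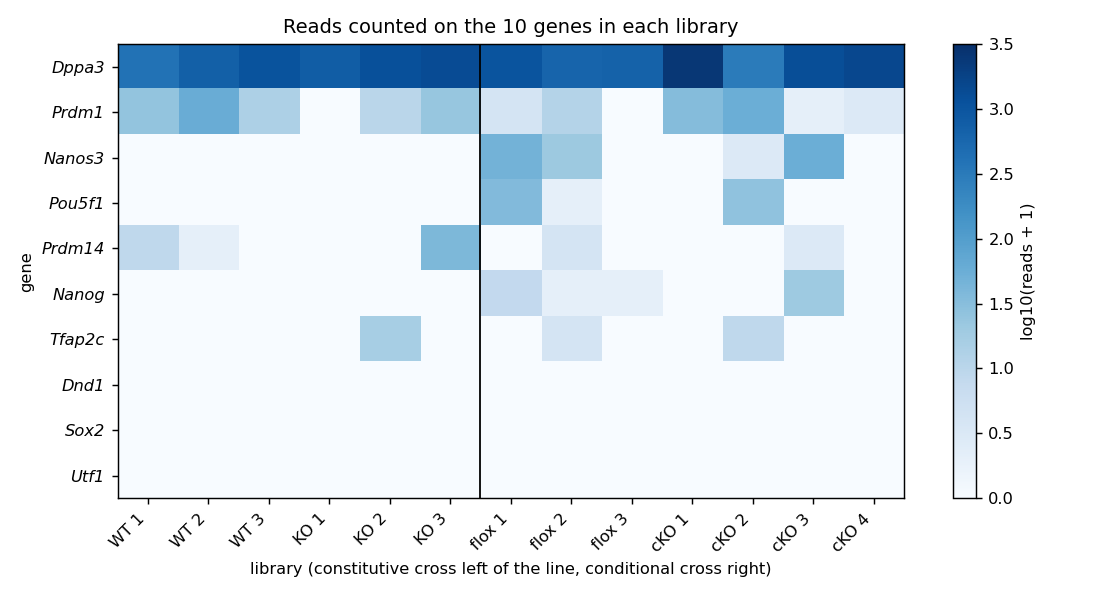
Reads counted on each of the 10 genes (rows) in each of the 13 libraries (columns), with shading on a log10(reads + 1) scale from 0 (white) upwards and a line between the crosses. *Dppa3* is shaded in every library, at 302 to 2532 reads, and *Dnd1*, *Sox2* and *Utf1* are white throughout.

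In WT, *Dppa3* was at 179, 342 and 290 CPM in replicates 1 to 3 (405, 716 and 1067 reads), a mean of 270 ± 83.2 CPM. In KO it was at 299, 568 and 586 CPM, a mean of 484 ± 161 CPM. KO replicate 1 lay below WT replicate 2, so the groups overlapped, and the other two KO libraries were above every WT library. In flox the values were 443, 279 and 318 CPM, a mean of 346 ± 85.9 CPM. In cKO they were 877, 118, 457 and 515 CPM, a mean of 492 ± 311 CPM. The cKO group held both the highest and the lowest library of the 13, which differed 7.44-fold, whereas the libraries of WT, KO and flox differed 1.91-fold, 1.96-fold and 1.59-fold within their groups. In order of their means the groups ran cKO, KO, flox and WT, and every pair of neighbours in this order overlapped.

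**Figure D2:**
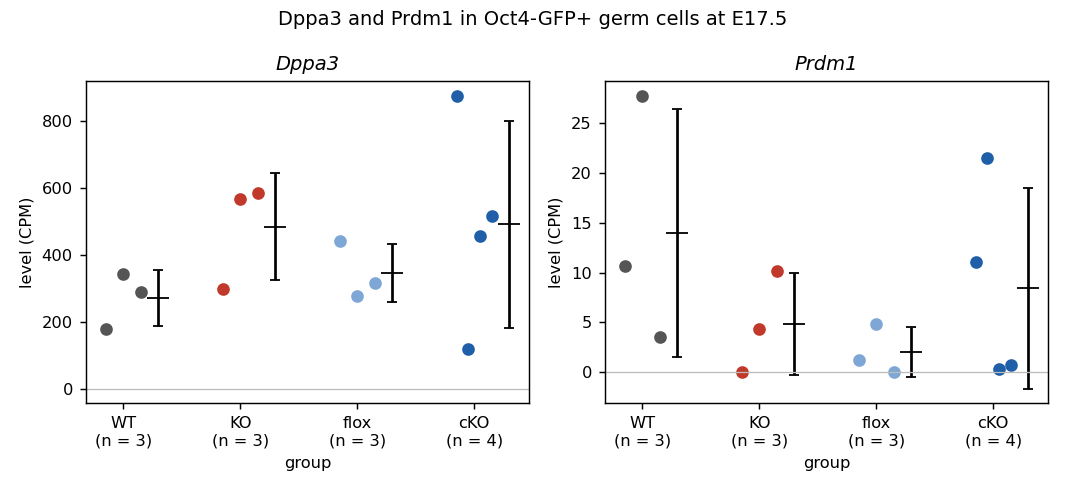
Level in CPM (vertical axes, linear, different scales) of *Dppa3* (left) and *Prdm1* (right) by group. Points are libraries, bars to their right the mean and SD of 3 or 4 libraries. *Dppa3* is above 100 CPM in all 13 libraries with overlapping groups, and *Prdm1* ranges from 0 to 27.7 CPM.

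The effect of the receptor's loss was tested in a single edgeR fit of the 13086 genes that passed filterByExpr, in which a gene was called at a Benjamini-Hochberg adjusted p of 0.05 or less. Of the 10 genes, *Dppa3*, *Prdm1* and *Nanos3* passed this filter. *Nanos3* had 0 reads in all 6 WT and KO libraries and could not be tested in KO against WT. 0 of the other 2 were called there, where 0 of 13086 genes (0%) were called and 5.82% had an unadjusted p under 0.05. In cKO against flox 0 of the 3 were called, where 0 genes (0%) were called and 3.19% had an unadjusted p under 0.05. None of these 5 tests on the genes gave an unadjusted p under 0.05. For *Dppa3* the log2 fold change of KO over WT reached 0.84, with a standard error of 0.44 and a 95% confidence interval of −0.077 to 1.76. Its unadjusted p in edgeR's test was 0.0707, and 0.858 after adjustment. Without the filter on low counts, over 22038 genes, these became 0.00609 and 0.754. The exact permutation test of its mean log2 CPM gave p = 0.2, two-sided, where 3 libraries against 3 allow no p under 0.1. In cKO against flox its log2 fold change was 0.51, with a standard error of 0.42 and a 95% interval of −0.36 to 1.37. The adjusted p was 0.9998 in edgeR, and the exact permutation test gave p = 0.743, where 4 against 3 allow no p under 0.0286. This value rested in large part on 1 library, as it was 0.087 without cKO replicate 1, 0.83 without cKO replicate 2 and 0.72 without flox replicate 1. The difference between the 2 deletion effects was −0.33 (standard error 0.60, 95% confidence interval −1.58 to 0.91), and ranged from −0.019 without cKO replicate 2 to −0.76 without cKO replicate 1.

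Between the crosses *Dppa3* was at 429 ± 238 CPM in the conditional (SD, n = 7) and 377 ± 164 CPM in the constitutive cross (n = 6). The log2 fold change was 0.19 (standard error 0.30, 95% confidence interval −0.44 to 0.81), and the libraries of both crosses were interleaved (exact permutation test, two-sided, p = 0.839). Without cKO replicate 1 the value was −0.027. In this comparison 1 of 13086 genes (0.00764%) was called, the ubiquitin gene *Ubb*, which is none of the 10, and 5.59% had an unadjusted p under 0.05. The biological coefficient of variation fitted for *Dppa3* was 0.396, beside 0.317 for genes of its level.

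**Figure D3:**
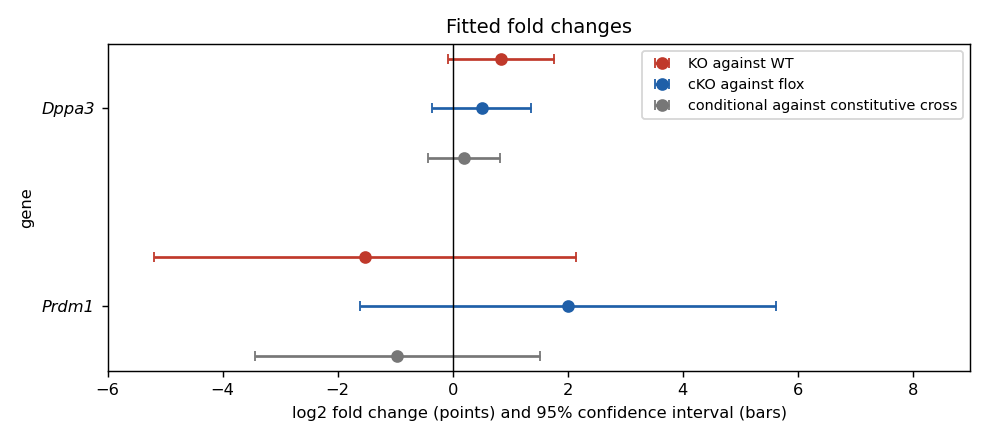
Fitted log2 fold changes (points, horizontal axis) of *Dppa3* and *Prdm1* with 95% confidence intervals (bars) for KO against WT, cKO against flox and the conditional against the constitutive cross. All 6 intervals include 0, and those of *Prdm1* are wider than those of *Dppa3*.

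*Dppa3* sits between *Gdf3* and *Nanog* in a cluster of genes expressed in pluripotent cells, and its neighbours there had few reads. *Gdf3*, which encodes a TGF-β family ligand, had 0 or 1 read per library, and *Nanog* downstream of it had 0 to 19. *Slc2a3*, a glucose transporter gene on the far side of *Nanog*, had 4 to 104 reads. Among the 13085 other genes tested, the 3 whose log2 CPM followed *Dppa3* most closely over the 13 libraries were *Dazap2* (Spearman's rho 0.896), *Fam102b* (0.879) and *Cnpy1* (0.863), and 128 genes had a rho over 0.7. All 13 points share their normalization and sorting, and rho is given as a description.

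*Prdm1* encodes BLIMP1, the repressor that starts the germ cell programme. It was counted in 11 of 13 libraries, at a mean of 7.39 ± 8.73 CPM. In WT it had 24, 58 and 13 reads (10.6, 27.7 and 3.53 CPM) and in KO 0, 9 and 23 reads (0, 4.38 and 10.1 CPM). In flox it had 3, 11 and 0 reads, a mean of 2.05 ± 2.54 CPM, and in cKO 32, 55, 1 and 2 reads, a mean of 8.40 ± 10.0 CPM. All 3 WT libraries held *Prdm1*, at a mean of 14.0 ± 12.4 CPM, but KO (4.83 ± 5.07 CPM) and WT overlapped, and the cKO group divided into 2 libraries with 32 or more reads and 2 with 1 or 2. The order of the group means was WT, cKO, KO and flox, and neighbours overlapped.

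The log2 fold change of *Prdm1* was −1.52 in KO against WT (standard error 1.78, adjusted p = 1, edgeR) and 2.00 in cKO against flox (standard error 1.75, adjusted p = 0.9998, edgeR). Exact permutation tests, two-sided, gave p = 0.4 and p = 0.457. With each library left out in turn these values ran from −2.65 (without KO replicate 3) to −0.54 (without WT replicate 2) and from 0.95 (without cKO replicate 2) to 3.61, and the second was 1.77 without flox replicate 1. The fitted effects had opposite signs, and their difference of 3.52 (standard error 2.49, 95% confidence interval −1.61 to 8.66) reached an adjusted p of 0.9999 in edgeR, where 0 of 13086 genes (0%) were called and 4.39% had an unadjusted p under 0.05. From the constitutive to the conditional cross the fold of *Prdm1* was −0.97 on the log2 scale, with a standard error of 1.2 (exact permutation test, two-sided, p = 0.361), and it ranged from −0.39 without KO replicate 3 to −1.76 without flox replicate 2. The fitted coefficient of variation was 1.36, beside 1.31 for genes of its level. The 3 tested genes nearest to *Prdm1* over the 13 libraries were *A630001G21Rik* (Spearman's rho 0.887), *Ttc39a* (0.847) and *Gm49692* (0.830).

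*Prdm14*, which partners PRDM1 in germ cell specification and keeps pluripotent cells in the naive state, was counted in 5 libraries. It had 8, 1 and 0 reads in WT, 0, 0 and 38 in KO, 0, 3 and 0 in flox and 0, 0, 2 and 0 in cKO. KO replicate 3 held 73.1% of its 52 reads. *Tfap2c* (AP2γ), which acts downstream of PRDM1, had 15 reads in KO replicate 2, 3 in flox replicate 2 and 8 in cKO replicate 2, and 0 in the other 10 libraries. Neither gene passed the filter, and for both the exact permutation test of KO against WT gave p = 1, two-sided. *Tfap2c* had reads in 1 of the 6 WT and KO libraries, so every division gives a difference of the same size. For this gene the exact permutation test of KO against WT therefore decides nothing. In cKO against flox the exact permutation test gave p = 0.714 for *Prdm14* and p = 1 for *Tfap2c*.

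*Pou5f1*, the gene whose promoter drives the sorted transgene, had 0 reads in all 6 libraries of the constitutive cross. In the conditional cross it had 35, 1 and 0 reads in flox and 0, 26, 0 and 0 in cKO. A floxed library without Cre thus held the highest count (14.8 CPM), and 3 of the 4 libraries with a targeted *Pou5f1* allele held none. *Nanog*, its partner in the pluripotency network, had 0 reads in the constitutive cross, 7, 1 and 1 in flox and 0, 0, 19 and 0 in cKO. *Nanos3*, the survival factor of migrating germ cells, also had 0 reads in the constitutive cross, with 47, 20 and 0 in flox and 0, 2, 54 and 0 in cKO.

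These 3 genes were thus counted in 3 (*Pou5f1*), 4 (*Nanog*) and 4 (*Nanos3*) of 7 conditional libraries and in 0 of 6 constitutive ones. Of the 3107 genes of the table with reads in 3 to 5 libraries, 9.33% had them in the conditional cross alone. *Prdm14* and *Tfap2c*, counted in 5 and 3 libraries, had reads in both crosses. The conditional libraries without reads overlapped the constitutive ones. The exact permutation test between the crosses, two-sided, gave p = 0.315 for *Pou5f1*, p = 0.0699 for *Nanog* and p = 0.119 for *Nanos3*. With distinct values 6 libraries against 7 allow a p as low as 0.000583, but the ties at 0 put this out of reach for these genes. All their reads already lay in the conditional cross, so no division gives a larger difference in that direction. In all, 18 such permutation tests were made on single genes and their p-values were not adjusted. *Nanos3* passed the filter through its conditional libraries alone, and edgeR gave it an unadjusted p of 0.00355 and an adjusted p of 0.777 between the crosses. This p is given as a description, because the gene entered the test through those libraries. In cKO against flox *Nanos3* was at 5.15 ± 9.79 CPM and 9.58 ± 9.95 CPM (exact permutation test, two-sided, p = 0.486).

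The reads of these genes were gathered in few libraries. flox replicate 2 held reads of 7 of the 10 genes, and flox replicate 1, cKO replicate 2 and cKO replicate 3 of 5 each, whereas KO replicate 1 held *Dppa3* alone. flox replicate 2 was also the library with the most genes counted (15629, beside 12946 to 14721 in the other libraries). In flox replicate 1 the summed blood and immune level was 1323 CPM, and *Stra8*, the gene that opens meiosis, had 326 of its reads there and 0 to 38 in the other 12 libraries. *Stra8* is named here after its values were seen. The 16 somatic genes summed to 108 to 198 CPM in the constitutive and 180 to 429 CPM in the conditional cross, and the 10 blood and immune genes to 0 to 238 and 104 to 1323 CPM. The part of these features in the reads of *Pou5f1*, *Nanog* and *Nanos3* was not tested. Without flox replicate 1, *Pou5f1* had reads in 2, *Nanog* in 3 and *Nanos3* in 3 of 6 conditional libraries, at 27, 21 and 76 reads in all. The 3 genes whose log2 CPM was nearest to *Nanos3* were *Btla* (Spearman's rho 0.994), *Creb3l3* (0.933) and *Fgf10* (0.925), an order that rests on 4 libraries with reads and 9 tied at 0.

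*Sox2*, *Utf1* and *Dnd1* had 0 of the 32884451 reads of all 13 libraries. No other gene overlaps the interval of *Utf1*, which encodes a chromatin protein of pluripotent cells, and a count of 0 allows it up to 0.0912 CPM over the pool. *Sox2* lies wholly inside *Sox2ot*, a long noncoding RNA gene on the same strand, which had 0 to 56 reads per library. Of the 1154 protein-coding genes that lie wholly inside another gene, 0 had a read in any library, including 727 for which every enclosing gene is on the opposite strand. A count of 0 for *Sox2* is therefore what every protein-coding gene so placed had, whatever its level. *Dnd1*, whose RNA-binding product works with NANOS proteins, shares its last 140 bp with *Wdr55* on the opposite strand, where the reads of a 3′ protocol fall, and *Wdr55* had 1 to 70 reads per library. A lower count of *Dnd1* by this overlap was not tested. *Pou5f1* is overlapped over 31.0% of its length by the antisense gene *Gm19553*, which leaves the last 221 bp of *Pou5f1* clear. *Gm19553* had 0 reads, but it lies wholly inside *Pou5f1*, and so this 0 gives no level. The shared part covers 79 of the last 300 bp of *Pou5f1*, and a lower count of *Pou5f1* by it was not tested. *Nanos3* holds *Mir181c* and *Mir181d* within its interval but away from its 3′ end, and *Dppa3*, *Nanog*, *Prdm1*, *Prdm14* and *Tfap2c* overlap no other gene. The annotated copies *Nanog-ps1*, *Nanog-ps2*, *Dppa3-ps* and *Dnd1-ps* had 0 reads, and reads that fit a gene and its copy equally well could have been left out of both.

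As a scale for a few scattered reads, 12 genes of tissues outside the ovary (pancreas, pituitary, eye, kidney, thyroid, heart and muscle) were read in the same way. Of these, 7 had 0 reads and 5 had reads in 1 to 6 libraries, up to 60 reads of the thyroglobulin gene *Tg* in cKO replicate 2. Their mean levels per length ran from 0.0769 to 0.571 CPM per kb of exon among the 5 with reads, highest in *Krt12* (0.571), *Actn3* (0.303) and *Tg* (0.272). *Nanog* (0.373 CPM per kb) and *Tfap2c* (0.246) lay within this range, *Prdm14* (0.684), *Pou5f1* (0.869), *Prdm1* (1.33), *Nanos3* (4.11) and *Dppa3* (455) above its top. This order depends on the division by length. In CPM *Tg* (2.42) was above *Pou5f1* (1.95) and *Prdm14* (1.75), and *Prdm1* (7.39) was above *Nanos3*. The deposited length is the whole gene interval, so reads in introns may be counted, whereas levels are divided by exon length. *Prdm1* spans 91325 bp with 5579 bp of exon, and *Nanos3* 11487 bp with 924 bp. The part of intron reads in these values was not tested.

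**Figure D4:**
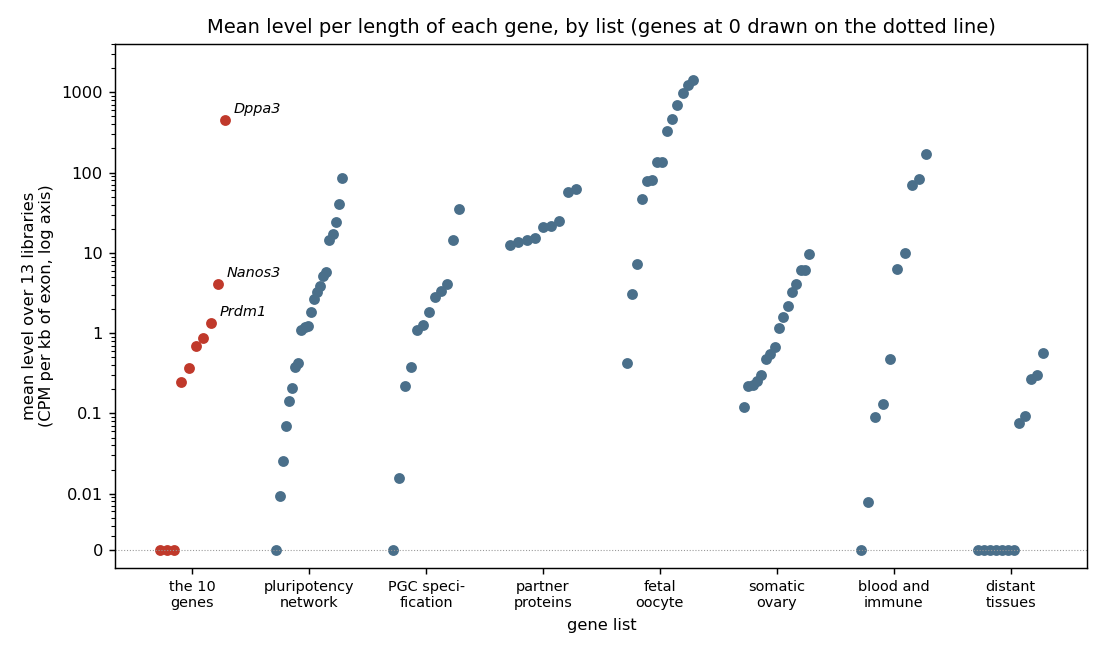
Mean level of each gene over the 13 libraries, in CPM per kb of exon on a log axis (genes at 0 on the dotted line), by gene list, with the 10 genes in red. *Dppa3* stands at 455 among the fetal oocyte genes, and the other members with reads lie between 0.246 and 4.11.

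Of 22 other genes of the pluripotency network, 21 had reads and 8 had at least 3 reads in every library. Counted in CPM, the highest were *Trim71* (160 ± 43.8), a translational repressor, *Dppa4* (143 ± 51.8), a chromatin protein, and *Lin28b* (130 ± 33.6), a let-7 inhibitor (SD, n = 13). Of these 22 genes 13 were tested, and 0 were called and 0 had an unadjusted p under 0.05 in any of the 4 comparisons. Their median log2 fold change was 0.43 in KO against WT, beside −0.031 over all genes tested, and 0.28 in cKO against flox, beside −0.010. The 13 values ran from −4.03 to 1.39 in KO and from −0.30 to 2.04 in cKO, and a shift of the list was not tested. For *Dppa4* the values were 0.14 (standard error 0.43) in KO and −0.21 (standard error 0.40) in cKO. The summed level of the 22 genes was 542 to 828 CPM over the 13 libraries.

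Of 12 genes of germ cell specification and migration, 2 had at least 3 reads in every library, the receptor *Kit* (316 ± 102 CPM) and the BMP signal transducer *Smad5* (107 ± 32.2 CPM). The third by mean level was *Smad1* (17.9 ± 11.8 CPM), with 1 to 119 reads. Of this list 8 were tested and 0 called, with a median log2 fold change of −0.18 in KO against WT and 0.13 in cKO against flox. Only 1 gene, *Alpl*, had an unadjusted p under 0.05, between the crosses (0.0210, adjusted p = 0.838, edgeR). *Alpl* had means of 0.238 CPM in WT and 0 in KO, beside 3.83 in flox and 1.87 in cKO. It passed the filter through its conditional libraries alone, so this p is given as a description. *Kit* had a log2 fold change of −0.44 in KO (standard error 0.34) and 0.27 in cKO (standard error 0.32).

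The 9 genes whose proteins work with the 10 were all counted in every library, among them the deacetylase *Hdac2* (281 ± 53.1 CPM) and the deadenylase scaffold *Cnot1* (249 ± 47.0 CPM). All 9 were tested and 0 called, with a median log2 fold change of 0.18 in KO against WT and 0.19 in cKO against flox. *Cnot8* had an unadjusted p under 0.05 in KO against WT (0.0421, adjusted p = 0.847, edgeR) and *Cbfa2t2* between the crosses (0.0261, adjusted p = 0.838, edgeR). *Alpl*, *Cnot8* and *Cbfa2t2* are named after their values were seen. The genes of NANOS3 and DND1, whose partners include CNOT proteins, had 123 and 0 reads over the same 13 libraries. Those of *Nanos3* fell in 4 conditional libraries alone, and *Dnd1* shares its last 140 bp with *Wdr55*.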

How the data were processed

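Tag-Seq counts of 13 female libraries were analysed. Per the labels and the study's methods, adapters were trimmed with cutadapt, reads were aligned to mm10 with STAR 2.6.0 and counted with featureCounts 1.6.3, and the authors deposited raw read counts per gene. Their length column equals the whole gene interval. The annotation and strand setting are not given in the sources used here. Tables of the authors' own comparisons (fold changes and p-values, made with edgeR 3.28.1 and limma 3.42.2) were not used.

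Here, edgeR 4.0.16 (R 4.3.3) was run on all 13 libraries with 4 group means, TMM, filterByExpr (minimum count 10, minimum total 15), a quasi-likelihood F test and Benjamini-Hochberg adjustment. The prior count of log2 CPM was 2. Deletion effects, crosses and the difference of effects were contrasts of this fit. Of these, KO against WT alone was checked on simulated data, with less spread than in these libraries and changes only in well-counted genes. Single genes were compared by exact permutation of libraries. GENCODE M21 gave symbols for 54587 of 55335 genes. Genes were compared with each other per kb of exon. Named were the 10 genes, the 3 highest by mean CPM and any called gene of each other list, and the 3 nearest genes by Spearman's rho. One gene that this rule names is not reported here. The 10 genes and the lists were chosen with earlier results of these data known. Alternatives were RLE, other filters, DESeq2 1.42.0, limma voom (3.58.1), fits of only the groups compared, a replicate block, other detection limits and each library left out. Totals were 2048706 to 3674989 reads, without molecular identifiers.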

Additional observations from a re-analysis of the deposited data

Results flagged for a closer look

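Within the cKO group, 1 library stood apart from the other three for 5 genes by the gap between the highest library and the nearest other, divided by the range of the group. This ratio was 1.000 for *Pou5f1* (highest library 10.2 CPM), *Nanog* (6.98 CPM), *Prdm14* (0.734 CPM) and *Tfap2c* (3.12 CPM), each with 0 reads in the other three libraries, and 0.961 for *Nanos3* (19.8 CPM), above the critical value of 0.829 for 4 libraries. Chance alone passes this value in about 1 of 20 groups, and a gene counted in a single library passes it by construction. The library was cKO replicate 2 for *Pou5f1* and *Tfap2c* and cKO replicate 3 for *Nanog*, *Prdm14* and *Nanos3*. The value of *Prdm14* rests on 2 reads, under the 3 reads (1.10 CPM) that a count of 0 allows in that library, and cannot be told from 0.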

How the results depend on the processing

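*Dppa3* was the only gene of the 10 over the detection limit at 1, 3 or 10 reads or 1 CPM in every library, and with each library left out. *Dppa3*, *Prdm1* and *Nanos3* were not called under any alternative in which they were tested. For *Pou5f1*, *Nanog*, *Prdm14* and *Tfap2c* only the fit without a filter on low counts was examined, and none was called there. Counts of called genes moved. Without a filter on low counts they were 15 in KO against WT, 11 in cKO against flox, 35 between the crosses and 8 for the difference of the deletion effects, of 22038 genes, and with DESeq2 12, 5, 35 and 10. Between the crosses 0 were called with at least 10 reads in every library. With each library left out, 0 to 2 were called in KO against WT (2 without WT replicate 3), 0 in cKO against flox, 0 for the difference, and 1 to 11 between the crosses (11 without WT replicate 3, 4 without KO replicate 3). The cause was not tested. Log2 fold changes that turned sign were those of *Dppa3* between the crosses (−0.027 without cKO replicate 1, and up to 0.34 without cKO replicate 2) and of *Nanos3* in cKO against flox (0.23 without flox replicate 1, and down to −1.46 without flox replicate 3). With 0 reads of *Nanos3* in WT and KO, its difference of deletion effects only repeats these values. The log2 fold change of *Dppa3* in KO against WT was 0.63 to 1.11 over the libraries left out and 0.80 to 0.88 over the other alternatives. Same-numbered replicates did not deviate together (correlations −0.0232 to 0.0636). With the replicate block 0 genes were called in KO against WT and 0 in cKO against flox, and 1 between the crosses, and no call on the 10 genes changed. The log2 fold change of *Prdm1* in KO against WT was −0.44 with the block. For genes at a few reads per library, depth limits each value to steps of 0.272 to 0.486 CPM.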
